A study of Mus musculus with 10 samples.

Results

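The transcripts described here encode the basic proteins that replace histones in the spermatid nucleus, and the linker histones that are specific to spermatids. They were taken by gene symbol and are Tnp1 and Tnp2 (transition proteins), Prm1, Prm2 and Prm3 (the protamine family) and H1fnt and Hils1 (linker histones), 7 of the 15507 genes listed for the series. The samples are germ cells that collagenase and trypsin freed from the testes of 5 wild-type (WT) and 5 homozygous GRTH knock-in (KI) mice, all 45 days old, with 1 poly(A) RNA library for each mouse. KI mice carry a human GRTH gene with the R242H mutation, targeted to the mouse gene, Ddx25, and WT mice carry no such allele. GRTH is an RNA helicase of Leydig cells and of meiotic and haploid germ cells. The preparations mix spermatogonia, spermatocytes and spermatids, and round spermatids of KI mice are known to fail to elongate, so that the mix of cells and the genotype cannot be told apart. In such bulk samples, fewer cells of a type and less RNA per cell cannot be told apart.

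In round and elongating spermatids, nucleosomes are taken apart and the histones give way first to transition proteins and then to protamines, small arginine-rich proteins that pack the DNA of the sperm head. The mRNAs of Tnp1, Tnp2, Prm1 and Prm2 are made in round spermatids, held in messenger ribonucleoprotein particles and translated days later, in elongating spermatids that no longer transcribe. H1fnt marks a cap at the apical pole of the round spermatid nucleus, Hils1 is found in elongating spermatids, and Prm3, unlike the protamines it is named with, encodes an acidic protein of the cytoplasm.

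Of these genes, 4 lie side by side on the minus strand of chromosome 16, within 8.889 kb at chr16:10787935-10796823 (GRCm38, the mm10 build). In order of coordinates they are Tnp2, Prm3, Prm2 and Prm1, with gaps of 1.852, 0.462 and 4.226 kb between them. Tnp2, Prm1, Prm2 and Tnp1 have 2 exons each, and Prm3, H1fnt and Hils1 have 1. Tnp1 is at chr1:73015074-73015899 (minus strand), H1fnt at chr15:98255982-98257307 (minus strand; H1f7 in RefSeq) and Hils1 at chr11:94967593-94968456 (plus strand). For Tnp1 alone the lower coordinate deposited with the counts differs from that of RefSeq, so the length counted may differ from the spliced length used below.

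The 150 bases before the start of each clustered gene and of Tnp1 are shown, because these are the genes whose transcripts fell most among the 7 or share a cluster with them. They are RefSeq sequences of GRCm38.p6, read 5′ to 3′ on the strand of the gene. Capitals mark matches to TGANGTCA, a loose form of the cAMP-response element TGACGTCA, to TATAAA or to TATATA, searched on both strands. These motifs were chosen after the sequences had been read.
Tnp2, chr16:10788656-10788805, minus strand: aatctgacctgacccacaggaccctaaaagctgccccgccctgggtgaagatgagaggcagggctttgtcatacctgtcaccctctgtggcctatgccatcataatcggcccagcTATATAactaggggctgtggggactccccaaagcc
Prm3, chr16:10790915-10791064, minus strand: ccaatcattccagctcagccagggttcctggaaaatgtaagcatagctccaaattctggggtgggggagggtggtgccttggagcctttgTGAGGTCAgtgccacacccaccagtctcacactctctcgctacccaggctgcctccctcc
Prm2, chr16:10792106-10792255, minus strand: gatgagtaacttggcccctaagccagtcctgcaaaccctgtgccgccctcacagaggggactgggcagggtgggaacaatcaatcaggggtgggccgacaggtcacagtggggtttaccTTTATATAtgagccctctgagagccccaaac
Prm1, chr16:10796824-10796973, minus strand: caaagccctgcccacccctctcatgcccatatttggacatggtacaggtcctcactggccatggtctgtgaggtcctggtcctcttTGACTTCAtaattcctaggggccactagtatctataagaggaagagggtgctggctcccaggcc
Tnp1, chr1:73015900-73016049, minus strand: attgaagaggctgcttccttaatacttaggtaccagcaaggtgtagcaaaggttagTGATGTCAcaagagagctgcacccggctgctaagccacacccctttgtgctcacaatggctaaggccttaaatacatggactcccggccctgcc
Tnp1 has TGATGTCA with its first base at -94, Prm1 has TGACTTCA, a match on the other strand, at -64 and Prm3 has TGAGGTCA at -60. In Tnp2 the match is TATATA at -35, and in Prm2 TATAAA on the other strand at -31 overlaps TATATA at -29. TGANGTCA was found in 4 of the 7 genes, Hils1 being the other, and in 8.83% of 32851 RefSeq promoters of the same window, which runs from 250 bases before to 50 bases after the start. TGACGTCA itself was found in 0 of 7 and in 1.79% of promoters. TATATA was found in 2 of 7 (5.67% of promoters) and TATAAA in 1 of 7 (13.6%). A match is a stretch of letters and not evidence of binding.

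Values are normalized counts, that is reads on a gene divided by the size factor of the library. A WT library held 13323024 to 16422347 reads on genes and a KI library 12722086 to 15500582, so that all 7 transcripts were far above 3 reads, which is 2.61 to 3.62 normalized counts depending on the library. Ddx25 measured 5198 to 11101 normalized counts in WT. In KI it measured 146 to 194 in libraries 1 to 3 and 1.84 to 2.88, at or under 3 reads, in libraries 4 and 5. Reads were aligned to the mouse genome, and how far RNA of the human gene is counted as Ddx25 was not tested. Libraries 4 and 5 of both genotypes also stood apart from libraries 1 to 3 in other genes and in the read quality the study lists, so the values of the 7 transcripts and their ratios are also given within both sets. Of 15389 genes tested, 2209 (14.4%) were differentially expressed in KI against WT, that is with an adjusted p under 0.05 and a fold change of at least 1.5 (limma, Benjamini-Hochberg over all genes), and 1265 of them (8.22%) were lower. Every KI library was below every WT library for 10.9% of genes tested.

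All 7 transcripts were lower in KI, and 6 of the 7 had every KI library below every WT library. Protamine transcripts fell most, Prm2 to 10.4% and Prm1 to 14.3% of the WT mean. Transition protein transcripts followed, Tnp2 at 21.0% and Tnp1 at 24.1%, with Prm3 at 25.8%. Among the linker histones H1fnt stood at 31.9% and Hils1 at 64.5%. The median log2 fold change of the 7 was −2.14, against 0.03 over all genes tested.

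Prm2, the protamine made as a longer precursor that is trimmed in the nucleus, measured 95094, 106977, 118195, 65571 and 59956 normalized counts in WT libraries 1 to 5. In KI libraries 1 to 5 it measured 10306, 11899, 11875, 7757 and 4573. The lowest WT library was far above the highest KI library, and in both genotypes libraries 4 and 5 were the lowest. The means were 89159 ± 25520 in WT and 9282 ± 3127 in KI (SD, n = 5), a 9.82-fold difference (log2 fold change −3.30 ± 0.25 SE, adjusted p = 3.25e-07 with limma). On the log2 scale this was the 17th lowest fold change of the 15389 genes tested.

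Prm1, the protamine that is made without a precursor, measured 54797, 61572, 66257, 28496 and 27584 in WT libraries 1 to 5 and 7924, 9099, 9116, 5205 and 2877 in KI libraries 1 to 5. The genotypes did not overlap, while WT libraries 4 and 5 were nearer to each other than to the rest of WT. Its mean was 47741 ± 18443 in WT and 6844 ± 2731 in KI (SD, n = 5), and the log2 fold change was −2.82 ± 0.32 (SE; limma adjusted p = 1.48e-05).

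Prm3 was by far the least abundant of the 7. Its normalized counts were 904, 1038, 971, 679 and 725 in WT libraries 1 to 5 and 241.6, 224, 305, 198 and 144 in KI. Again no KI library reached a WT library, and the highest KI library was number 3. The means of 863 ± 156 and 223 ± 58.8 (SD, n = 5) differed by −1.97 ± 0.18 on the log2 scale (SE; limma adjusted p = 1.30e-06), the smallest fall of the 4 clustered genes.

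Tnp2, a transition protein of the chromosome 16 cluster, measured 45386, 53106, 57806, 39875 and 39111 in WT libraries 1 to 5 and 9843, 11774, 11282, 10100 and 6297 in KI. Both genotypes were tight beside Prm1, and KI library 4 lay among KI libraries 1 to 3. The means were 47057 ± 8210 and 9859 ± 2147 (SD, n = 5), and their log2 fold change was −2.27 ± 0.17 (SE; limma adjusted p = 2.23e-07).

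Tnp1, the other transition protein, is on chromosome 1 and measured 32199, 33293, 39481, 19499 and 15651 in WT libraries 1 to 5. In KI it measured 7669, 9585, 9599, 4549 and 2410. The genotypes did not overlap, but the spread between KI libraries was the widest of the 7, with a coefficient of variation of 47.2%. The means were 28025 ± 10028 and 6762 ± 3189 (SD, n = 5), and the log2 fold change was −2.14 ± 0.35 (SE; limma adjusted p = 3.57e-04). Exons of Tnp1 share bases with the antisense gene 1700027A15Rik, which measured 4677 ± 958 in WT and 681 ± 295 in KI. Whether strand was used in counting is not given in the sources used here, so reads of the pair cannot be told apart.

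H1fnt, a linker histone needed for normal nuclear condensation, measured 8875, 9632, 10384, 5364 and 6980 in WT libraries 1 to 5 and 2633, 2981, 2884, 2635 and 2040 in KI. KI libraries were close together, with a coefficient of variation of 13.9% against 24.8% in WT, and none reached a WT library. The means were 8247 ± 2049 and 2634 ± 366 (SD, n = 5), a difference of −1.62 ± 0.16 on the log2 scale (SE; limma adjusted p = 4.65e-06).

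Hils1, the linker histone of elongating spermatids, differed least and its genotypes overlapped. It measured 8933, 9182, 9344, 7156 and 6313 in WT libraries 1 to 5 and 6232, 6567, 6554, 4224 and 2829 in KI. WT library 5 was below KI libraries 2 and 3. The means were 8185 ± 1366 and 5281 ± 1681 (SD, n = 5), and the log2 fold change was −0.69 ± 0.21 (SE; limma adjusted p = 0.0264).

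The call for Hils1 depended on libraries and on scaling, whereas that for each of the other 6 transcripts held in all 25 alternatives. Without WT library 1, 2 or 3 the log2 fold change of Hils1 was −0.65, −0.64 or −0.63 (limma adjusted p = 0.0642, 0.0646 and 0.0608), and without KI library 4 it was −0.62 (adjusted p = 0.0628). Without KI library 5 it was −0.48 (adjusted p = 0.0311), under 1.5-fold. It was also lost with scaling to library totals (−0.46, adjusted p = 0.106), to spermatocyte markers (−0.55, adjusted p = 0.0613) or to round spermatid markers (−0.34, adjusted p = 0.123). In libraries 1 to 3 alone the difference of −0.50 had an adjusted p of 4.03e-05 but was under 1.5-fold, and in libraries 4 and 5 alone it was −0.96. Hils1 lies inside Sgca, a muscle gene on the other strand, without sharing exon bases, and Sgca measured 131 ± 6.49 in WT and 106 ± 8.44 in KI.

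**Figure D1:**
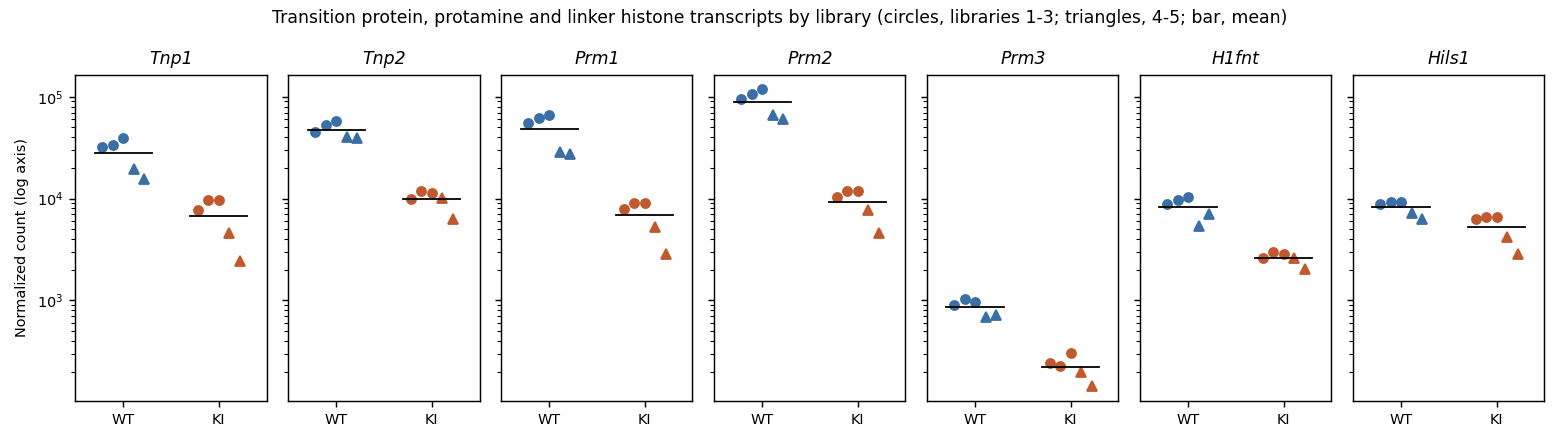
Normalized counts (log axis) of the 7 transcripts in each of 5 WT and 5 KI libraries, with circles for libraries 1 to 3, triangles for libraries 4 and 5, and a bar for the mean. KI lies wholly below WT for 6 transcripts and overlaps it for Hils1, where WT library 5 (6313) is below KI library 2 (6567).

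Within each genotype the 7 transcripts also varied with the library set. In libraries 4 and 5 against libraries 1 to 3, with genotype in the model, all 7 were lower at an adjusted p under 0.05, as a difference in either direction was for 21.5% of genes tested (limma). The sets were chosen with values of these libraries known, so these differences are a description. Tnp1 and Prm1 varied most, at 50.2% and 46.1% of the level of libraries 1 to 3 in WT and at 38.9% and 46.4% in KI. Prm2 stood at 58.8% in WT and 54.3% in KI. Tnp2 differed least on the log2 scale (−0.42 ± 0.12 SE), against −1.21 ± 0.15 for Tnp1. The sets overlapped for Tnp2 and for H1fnt in KI and in no other case. The part of read quality in these differences was not tested.

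The fall in KI was present in both library sets. For Prm2 the log2 fold changes of libraries 1 to 3 and of libraries 4 and 5 were −3.23 and −3.40, and for Prm1 they were −2.80 and −2.86. Tnp2 gave −2.25 and −2.31, Tnp1 −1.97 and −2.40, and Prm3 −1.92 and −2.05. Over all 10 libraries H1fnt was the only one of the 7 with the smaller fall in libraries 4 and 5, −1.76 against −1.40. That direction rested on KI library 5. Without it the fall was smaller in libraries 4 and 5 also for Prm1 (−2.80 and −2.43) and Prm2 (−3.23 and −3.01). The same held for Tnp2 (−2.25 and −1.97), Tnp1 (−1.97 and −1.94) and Prm3 (−1.92 and −1.82), but not for Hils1 (−0.50 and −0.67). The difference between the sets was at an adjusted p under 0.05 for 0 of 7 transcripts, with 1 of 7, Hils1, at an unadjusted p under 0.05 (limma interaction). Over all genes tested the share was 0.247% after adjustment and 16.1% before it, close to 1 of 7. Without KI library 4 the log2 fold changes of the 2 sets were −0.50 and −1.25 for Hils1 and −1.97 and −2.86 for Tnp1. Leaving out KI library 4 or 5 leaves 1 KI library in its set, so only these effect sizes are given.

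**Figure D2:**
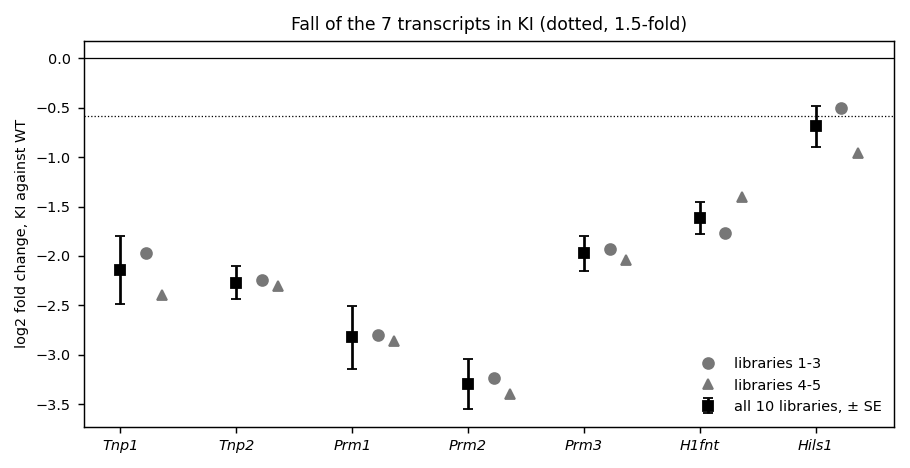
Log2 fold change of each transcript, KI against WT, over all 10 libraries (squares, bars SE) and within libraries 1 to 3 (circles) and 4 and 5 (triangles), with a dotted line at 1.5-fold. Prm2 falls most in each set (−3.23 and −3.40) and Hils1 least (−0.50 and −0.96).

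Together the 7 transcripts took 1.43% ± 0.376 of the reads on genes in WT (range 1.01% to 1.88%) and 0.303% ± 0.105 in KI (range 0.152% to 0.394%; SD, n = 5). The difference of −1.13 percentage points was larger than the spread within genotypes (p = 0.00794 in an exact two-sided permutation test, the smallest that 5 against 5 libraries can give). It was −1.31 points in libraries 1 to 3 alone and −0.85 points in libraries 4 and 5 alone.

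To set genes beside each other, normalized counts were divided by the spliced length of the transcript. Fragment length was not corrected for, so an order between such short transcripts is uncertain. On this scale the order of levels in WT was Prm2 (143573 ± 41094 normalized counts per kb), Prm1 (101793 ± 39324), Tnp2 (84940 ± 14820) and Tnp1 (64129 ± 22947). Hils1 (9474 ± 1581), H1fnt (6305 ± 1567) and Prm3 (2106 ± 380) followed (SD, n = 5). The ranges of neighbours overlapped from Prm2 to Tnp1 and between Hils1 and H1fnt. They were separate between Tnp1 and Hils1 and between H1fnt and Prm3. The order of these means did not hold in each library set. In WT libraries 4 and 5, Tnp2 (71976 and 70597 per kb) was above Prm1 (60758 and 58814), while Prm1 was above Tnp2 in WT libraries 1 to 3. In KI the means of the first 4 were nearer to each other, with Tnp2 at 17796 ± 3876, Tnp1 at 15474 ± 7297, Prm2 at 14947 ± 5036 and Prm1 at 14593 ± 5823 per kb, and their ranges overlapped. Tnp1 was the highest of these 4 in KI libraries 2 and 3 (21934 and 21965 per kb) and the lowest in KI libraries 4 and 5, at 10411 and 5514 against 18231 and 11366 for Tnp2. Hils1 was next (6113 ± 1946), its range reaching that of Prm1, then H1fnt (2014 ± 280) and Prm3 (543 ± 143), each separate from the one above.

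Unequal falls changed the balance between the transcripts, measured as ratios of normalized counts within a library, which do not depend on scaling. Tnp2 to Prm2 was 0.477, 0.496, 0.489, 0.608 and 0.652 in WT libraries 1 to 5 and 0.955, 0.990, 0.950, 1.30 and 1.38 in KI. All KI libraries were above all WT libraries, and libraries 4 and 5 were the highest of each genotype. The mean rose from 0.545 ± 0.0800 to 1.11 ± 0.207 (SD, n = 5), a log2 difference of 1.03 (0.98 for libraries 1 to 3, 1.09 for libraries 4 and 5). Per kilobase, without a correction for fragment length, the ratio was 0.611 in WT and 1.25 in KI. On that scale Tnp2 was below Prm2 in WT and above it in KI.

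Prm1 to Prm2, the balance of the sperm protamines, was 0.576, 0.576, 0.561, 0.435 and 0.460 in WT libraries 1 to 5 and 0.769, 0.765, 0.768, 0.671 and 0.629 in KI. It was lower in libraries 4 and 5 of each genotype, and the genotypes did not overlap. The log2 difference was 0.47 (means 0.521 ± 0.0685 and 0.720 ± 0.0658, SD, n = 5), with 0.43 in libraries 1 to 3 and 0.54 in libraries 4 and 5. Prm3 to Prm2 rose as well, from 0.00997 ± 0.00141 to 0.0250 ± 0.00460, a log2 difference of 1.32 (1.30 and 1.34 in these sets).

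Prm1 to Tnp1 fell from 1.69 ± 0.144 in WT to 1.05 ± 0.112 in KI (SD, n = 5), a log2 difference of −0.68 (−0.83 for libraries 1 to 3, −0.46 for libraries 4 and 5). H1fnt to Hils1 fell from 1.00 ± 0.149 to 0.532 ± 0.133, a log2 difference of −0.93 (−1.26 for libraries 1 to 3, −0.44 for libraries 4 and 5). Each of these 5 ratios had no overlap between genotypes (exact two-sided permutation test, p = 0.00794 each, 0.00952 after Benjamini-Hochberg over 6 ratios). Some genes, Prm2 among them, are in more than 1 ratio, so these are not separate results. How often ratios between other genes part the genotypes was not tested. Within a set of 3 against 3 libraries the smallest p is 0.1, so the test cannot reach 0.05 there.

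Tnp1 to Tnp2 did not separate the genotypes. It was 0.709, 0.627, 0.683, 0.489 and 0.400 in WT libraries 1 to 5 and 0.779, 0.814, 0.851, 0.450 and 0.383 in KI. It was higher in KI within libraries 1 to 3 (log2 difference 0.28) and lower within libraries 4 and 5 (−0.09), and over all libraries the log2 difference was 0.13 (exact two-sided permutation test, p = 0.619).

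**Figure D3:**
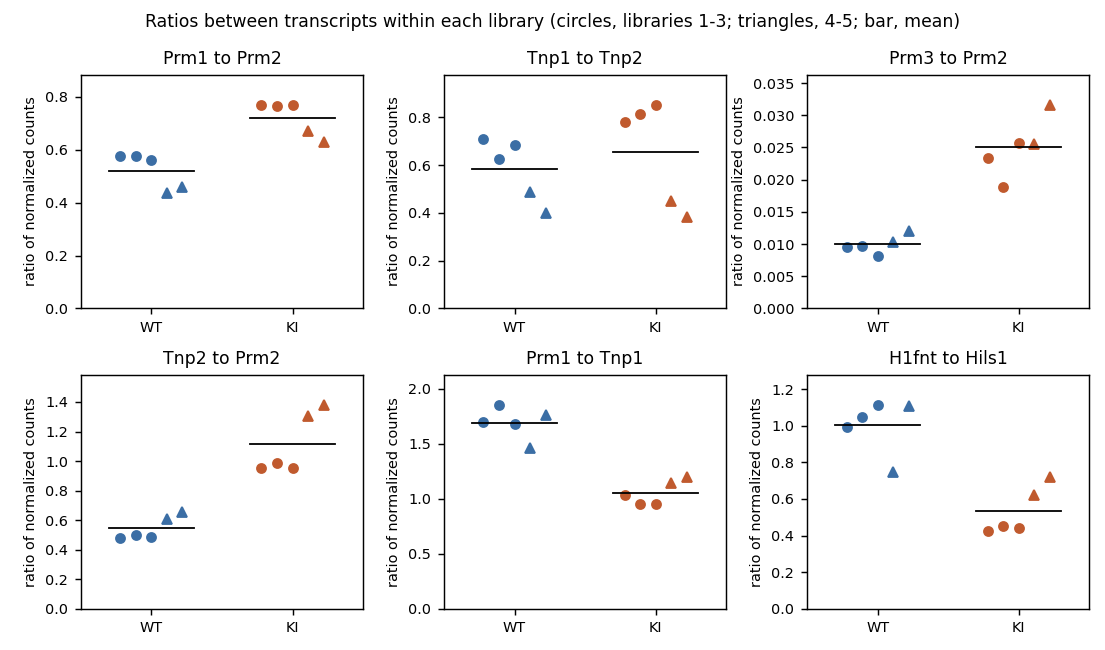
Ratios of normalized counts (linear axes from 0) between pairs of transcripts in 5 WT and 5 KI libraries, with circles for libraries 1 to 3, triangles for 4 and 5, and a bar for the mean. The genotypes are separate in each panel but Tnp1 to Tnp2, where the libraries part by number rather than by genotype.

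The 18 other genes of the table within 1 Mb of the chromosome 16 cluster were all tested, and their median log2 fold change was 0.08, in a range of −0.79 to 0.84. Of them 1 was higher, Emp2, a membrane protein gene (26.2 ± 6.68 to 46.5 ± 5.39, log2 fold change 0.84, limma adjusted p = 0.00937; 0.69, adjusted p = 0.225, in libraries 4 and 5 alone), and 1 lower, 2610020C07Rik. Over all genes tested 6.13% were higher and 8.22% lower. 2610020C07Rik was at low counts (33.2 ± 9.50 to 19.1 ± 6.18, log2 fold change −0.79, adjusted p = 0.0421). Its call was lost in 14 of 24 alternatives, among them leaving out WT library 2, 3 or 4 or KI library 1, 2, 4 or 5 (adjusted p 0.0532 to 0.113). The nearest neighbour, the cytokine signalling inhibitor Socs1, begins 2.398 kb from Tnp2 and measured 57.9 ± 9.31 in WT and 50.3 ± 7.37 in KI (log2 fold change −0.20, limma adjusted p = 0.444). On the other side Rmi2, a subunit of a DNA repair complex, is 38.235 kb from Prm1 and had a log2 fold change of 0.37 (limma adjusted p = 0.172).

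**Figure D4:**
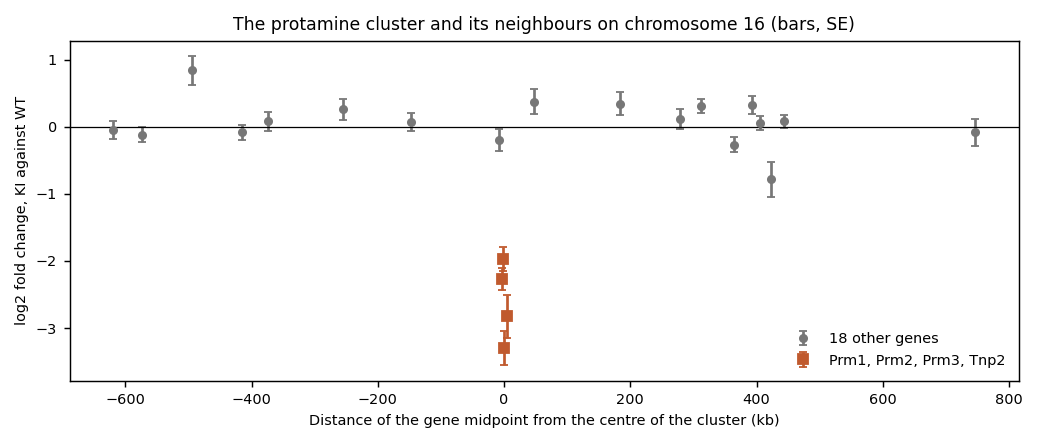
Log2 fold change (KI against WT, bars SE) of the clustered Prm1, Prm2, Prm3 and Tnp2 (squares) and of the 18 other genes within 1 Mb (circles), against distance of the gene midpoint from the centre of the cluster in kb. The 4 clustered genes lie from −3.30 to −1.97 and the others from −0.79 to 0.84.

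Genes that act with these proteins, in 5 lists, were tested for comparison: 14 of 77 were differentially expressed, 13 lower and 1 higher, with a median log2 fold change of −0.08. Over all genes tested 14.4% were differentially expressed, 8.22% lower and 6.13% higher. In the list of nuclear condensation factors and protamine kinases, 7 of 15 were lower and 0 higher (by unadjusted p under 0.05 with limma, whatever the fold change, 8 and 0), and the median was −0.33. They included Tssk6, a kinase needed for histone replacement (11565 ± 2368 to 1481 ± 542, −3.02), and Spem1, needed to shed spermatid cytoplasm (9359 ± 1496 to 1506 ± 369, −2.66). Camk4, a kinase that phosphorylates Prm2, fell by 1.35 on the log2 scale and Srpk2, an SR protein kinase, by 0.95. Tssk6 and Spem1 are also among the markers of elongating spermatids used below.

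Among 12 genes for the transcription of these genes, 3 were lower and 0 higher (6 and 0 by unadjusted p under 0.05 with limma, whatever the fold change), and the median was −0.32. Crem, the activator that binds cAMP-response elements in haploid germ cells, measured 3173 ± 471 in WT and 2094 ± 297 in KI (−0.60, adjusted p = 0.00239). Its fold change passed under 1.5 without WT library 1 (−0.57), WT library 2 (−0.53) or KI library 5 (−0.51), and with scaling to library totals (−0.37), to the upper quartile (−0.51) or to spermatocyte markers (−0.47). Kif17, a kinesin that carries a coactivator of Crem, measured 7422 ± 688 and 3854 ± 675 (−0.96). Rfx3, a factor of ciliary genes, had −0.62, and was under 1.5-fold without WT library 2 or KI library 1 or 3 (each −0.58), and with scaling to library totals (−0.39), to the upper quartile (−0.53) or to spermatocyte markers (−0.49). In libraries 4 and 5 alone Rfx3 had −0.41 (limma adjusted p = 0.109). With scaling to round spermatid markers, Crem had −0.26 (adjusted p = 0.189) and Rfx3 −0.28 (adjusted p = 0.239).

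Of 20 genes for histone removal and chromatin writing, only Ube2j1, a ubiquitin-conjugating enzyme, passed the test (6957 ± 1211 to 3191 ± 255, −1.11), and the median was 0.01. Of 18 genes for storage and translation of mRNAs, only Paip2, an inhibitor of poly(A)-binding protein, reached both thresholds (2507 ± 245 to 1503 ± 222, −0.75), and the median was −0.04. Its call was lost with scaling to library totals (−0.52, under 1.5-fold) or to round spermatid markers (−0.40, limma adjusted p = 0.0513). At an adjusted p under 0.05 (limma), whatever the fold change, 4 of the 18 passed. Besides Paip2 these were Dcp1a (−0.45, adjusted p = 0.0108) and Papolb (−0.35, adjusted p = 0.0269), lower, and Elavl1 (0.24, adjusted p = 0.0492), higher. Of 12 tested testis histones and linker histones, 1 was lower and 1 higher by both thresholds, with a median of −0.01. At an adjusted p under 0.05 (limma), whatever the fold change, 4 of the 12 passed. Among them the linker histones Hist1h1t (0.54, adjusted p = 0.0350) and H1f0 (0.49, adjusted p = 0.00841) were higher in KI by under 1.5-fold. Hist1h1t was at low counts in these poly(A) libraries, 47.6 ± 7.20 in WT and 69.6 ± 11.9 in KI, and H1f0 measured 260 ± 44.7 and 361 ± 29.5. H2al2a, a histone H2A variant that works with transition proteins, measured 2544 ± 556 and 824 ± 216 (−1.64), and H2afb3, a short H2A variant, measured 76.3 ± 16.1 and 147 ± 30.1 (0.94). In libraries 4 and 5 alone H2afb3 had 0.58 (limma adjusted p = 0.179). Both H2al2a and H2afb3 belong to families with near-identical copies, so their values are uncertain.

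Markers of the cell types were set beside these values. All 10 markers of elongating spermatids were lower in KI (median −2.53), their summed level ranging from 192381 to 276456 normalized counts in WT and from 58794 to 75394 in KI. Of 10 markers of round spermatids, 0 reached both thresholds with limma, edgeR or DESeq2, with 4 lower at an unadjusted p under 0.05 (limma) and a median of −0.29. At an adjusted p under 0.05 (limma) 3 of the 10 were lower by under 1.5-fold, Catsper3 (−0.58, adjusted p = 7.61e-04), Spaca1 (−0.53, adjusted p = 0.00604) and Zpbp (−0.42, adjusted p = 0.0186), each with every KI library below every WT library. Their sum ranged from 25092 to 29142 in WT and from 15051 to 25735 in KI. Spermatocyte markers had 1 of 10 lower, Syce2, and a median of −0.05 (sums 24730 to 34308 and 23219 to 27578). Spermatogonial markers had 0 of 8 differentially expressed by the 3 tools (1 each way at an unadjusted p under 0.05), with sums of 14288 to 18778 and 14561 to 18883. Dmrtb1 alone averaged 14416 ± 1886 in WT and 13901 ± 1871 in KI, so these sums are mostly that gene. Gfra1 was lower by under 1.5-fold (−0.48, limma adjusted p = 0.0202).

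Markers of somatic cells were present in the labelled germ cells. Of 7 Leydig cell markers 3 were higher (sums 10291 to 18066 in WT and 14779 to 25692 in KI), and of 8 macrophage markers 5 were higher (sums 664 to 880 and 955 to 1304). At an unadjusted p under 0.05 (limma), whatever the fold change, 6 of the 7 and 6 of the 8 were higher. For Leydig cell markers edgeR gave 3 and DESeq2 5 differentially expressed, and the median log2 fold change was 0.69. For macrophage markers both gave 5, and the median was 0.71. Of 4 tested peritubular myoid markers 2 were higher (sums 120 to 208 and 191 to 236 over 5 genes), and of 8 Sertoli cell markers 0 passed at an unadjusted or adjusted p under 0.05 (limma; 0 by edgeR and DESeq2; sums 6810 to 11327 and 7207 to 12046). No marker was without a read. The part of any cell type in the fall of the 7 transcripts was not tested.

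**Figure D5:**
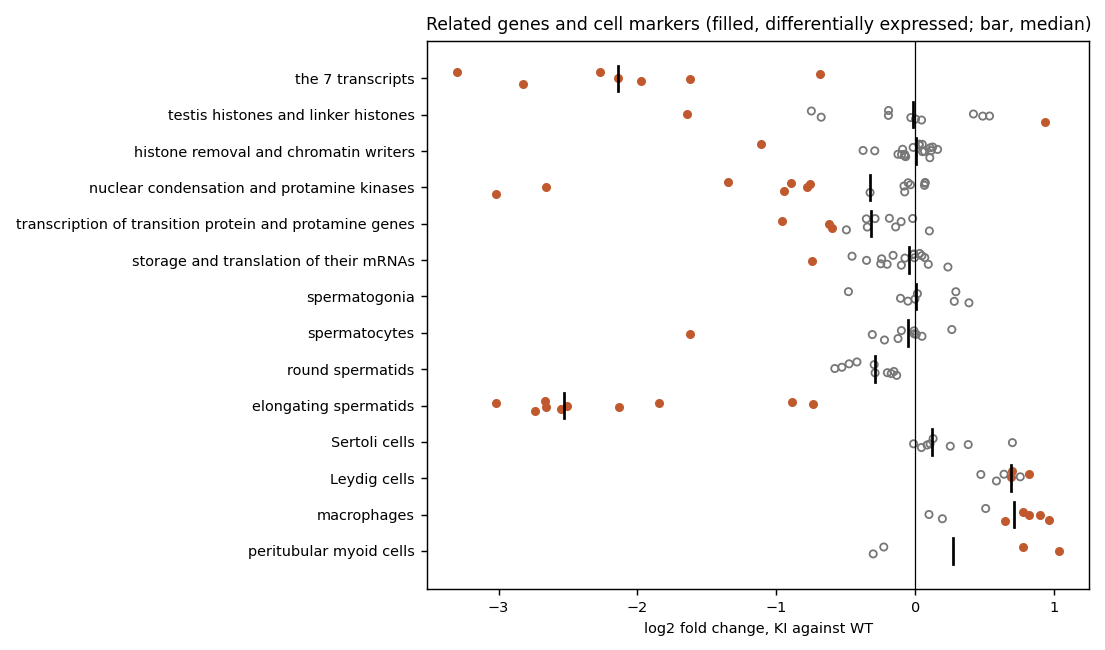
Log2 fold change (KI against WT) of each tested gene in the 7 transcripts, 5 lists of related genes and 8 lists of cell type markers, filled where differentially expressed, with a bar at the median. The 7 transcripts (median −2.14) and the elongating spermatid markers (median −2.53) lie lowest, and round spermatid markers have a median of −0.29.

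To find transcripts of like pattern, 10827 other genes were ranked by Pearson r with the mean log2 value of Prm1, Prm2, Prm3 and Tnp2 over the 10 libraries. The highest were Cdrt4, 1700009J07Rik, Gm11780, 1700029H14Rik and Oaz3, an antizyme gene of haploid germ cells, at r of 0.998 to 0.999. The points share genotype and library set, so these values describe the 10 libraries. For deviations from the genotype means, the highest were Spaca9, 1700096J18Rik, Cdrt4, Hmgb4, a germ cell HMG-box protein gene, and Cypt12, at r of 0.993 to 0.996. The profile itself falls in KI, so genes picked by r over the 10 libraries are lower in KI by that choice. Their log2 fold changes reached −3.13 for 1700009J07Rik. Those picked by deviations were lower in KI too, from −0.76 for Spaca9 to −2.31 for 1700096J18Rik. Over all genes tested 8.22% were differentially expressed and lower.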

How the data were processed

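RNA of testicular germ cells from 5 WT and 5 KI mice (1 library per mouse) was analysed. Adapters were trimmed by the authors, STAR aligned the reads to mm10, and the E/M model of Partek gave counts on RefSeq genes. The authors deposited a signal for each gene and library, the count divided by a DESeq2 size factor. Dividing by the value of 1 read returned whole reads, within 0.05, for 100% of values under 5000 reads, and DESeq2 size factors of these reads were within 0.000399 percent of it. All 10 value columns were assigned (0 not assigned).

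Genes that passed filterByExpr (edgeR version 4.0.16) were compared with limma (version 3.58.1, R 4.3.3) on log2(normalized count + 1) with a variance trend, so that fold changes of low genes are understated. Differential expression was an adjusted p under 0.05, over all genes tested, with at least 1.5-fold. Ratios and the share of reads were compared by exact two-sided permutation over 252 arrangements. Levels per kb used the spliced length of the GENCODE transcript matched to each RefSeq mRNA (410 to 1308 bases), with no correction for fragment length. Gene positions and promoters are those of RefSeq. Named genes were the 7 members, Ddx25, up to 4 genes with the largest change among those called in each related list, the called neighbours of the cluster, and the 5 most alike by each measure, where the higher genotype averaged 100 or more normalized counts. Socs1, Rmi2, Syce2, Catsper3, Spaca1, Zpbp, Dcp1a, Papolb, Elavl1, Hist1h1t, H1f0, Dmrtb1 and Gfra1 were named after their values were seen. Members, lists and library sets were chosen with earlier results of these data known.

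Deviations from the genotype means in same-numbered libraries correlated over genes at r of 0.306, 0.105, 0.280, 0.216 and 0.462, so the number was used as a block in an alternative. Between replicates the chi-square per degree of freedom was 2.67 to 46.4, more than counting noise alone gives, so no library was entered again under another number. This value cannot tell libraries of the same RNA from libraries of different mice. Other tests (edgeR quasi-likelihood, DESeq2 version 1.42.0), pseudocounts, filters and scalings were alternatives. Scripts were tested on simulated data. Protein sequences were not used here.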

Additional observations from a re-analysis of the deposited data

How the results depend on the processing

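Alternatives were computed for the 7 transcripts, Ddx25, the 11 related genes named as differentially expressed, and Emp2 and 2610020C07Rik. None of their fold changes turned its direction. Of the 7 transcripts Hils1 alone lost its call. For the other related genes, the markers and the genes of like pattern no alternative is given gene by gene. The Tnp1 to Tnp2 ratio, which passed no test, went from 0.13 to −0.09 in libraries 4 and 5 alone. The count of differentially expressed genes was 2209, with 1235 when a mean of at least 100 normalized counts was required (fewer genes tested) and 3551 with scaling to round spermatid markers. Scaling to library totals moved the median of all genes to a log2 fold change of 0.25. The split went from 944 higher and 1265 lower to 2144 and 789. The cause of these shifts was not tested. All 7 transcripts were still lower in KI with this scaling, and 6 of the 7 were differentially expressed. Of the 18 neighbours of the cluster, 2 were differentially expressed, against 1 with a pseudocount of 10, upper quartile scaling, spermatocyte marker scaling or libraries 1 to 3 alone, 0 with a mean of at least 100 or libraries 4 and 5 alone, and 6 with round spermatid marker scaling. Leaving out a library gave 1 to 2. The number of the 7 transcripts whose fall differed between library sets stayed at 0 on leaving out any of libraries 1 to 3. Leaving out KI library 4 or 5 leaves 1 KI library in its set. For Tnp1 the log2 fold change of that set was −2.86 without KI library 4 and −1.94 without KI library 5.

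Within library sets, Prm1 to Tnp1 was −0.83 (1 to 3) and −0.46 (4 and 5), H1fnt to Hils1 −1.26 and −0.44, and the difference in share of reads −1.31 and −0.85 points. With the replicate block, 7 of 7 transcripts and 2410 genes were differentially expressed. The sign-flip test of the paired ratios has a smallest p of 0.0625 (exact, n = 5 pairs), which the 5 ratios without overlap reached, and this says nothing of their stability. With the block 16 related genes were differentially expressed in place of 14, and none of the genes listed above lost its call. The neighbours Emp2 and 2610020C07Rik, and Ddx25 in KI libraries 4 and 5, were at low counts. KI libraries 4 and 5 held 15182116 and 15186243 reads on genes, within the range of the other KI libraries. Limits are that each genotype has 5 mice, that libraries 4 and 5 stand apart, and that cell mixture and genotype go together.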
